A study of Citrus x limon with 9 samples.

Results

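The circadian clock genes of lemon buds were followed in 9 RNA sequencing libraries. The 10 members were taken by gene identifier: GIGANTEA (GI), LHY-like, 4 pseudo-response regulators (PRR95-like, APRR7-like, APRR5-like and APRR1-like), 2 ELF3-like genes, ELF4 and LUX-like. They are 10 of the 22353 genes in the expression table. All trees were Femminello lemons, 1 to 2 years old, bud-grafted on trifoliate orange and kept in a greenhouse with a minimum of 23 °C under natural day length. The terminal bud and the 5 buds below it were collected at 3 stages, with 3 libraries per stage. Stage 1 was 1 week before the water deficit, when trees were watered to saturation every 2 days. Stage 2 was 1 week into a deficit of 2 weeks, and stage 3 was 1 week after watering was resumed. Each replicate was a group of 3 trees, so a library is a pool of trees as well as of buds. Date, water supply and bud development change together between the stages, and no library comes from trees watered throughout. The study saw floral differentiation begin within days of the deficit, and flower buds could be seen by eye at stage 3. The hour at which buds were cut is not given in the sources used here. Stage, bud development and time of day therefore cannot be told apart, which bears on every clock gene below.

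The plant clock is a set of transcription factors that repress each other in a daily sequence. In Arabidopsis, LHY and its relative CCA1 peak at dawn, the pseudo-response regulators PRR9, PRR7 and PRR5 follow in turn through the morning and afternoon, and GI, TOC1 (also called APRR1) and the evening complex of ELF3, ELF4 and LUX peak towards dusk. Each wave lowers the genes of the others, and GI with the F-box protein FKF1 carries the time of day to the flowering genes. The members were grouped by these Arabidopsis phases, which were not measured in lemon. LHY-like, PRR95-like and APRR7-like are called morning members, APRR5-like the afternoon member, and GI, APRR1-like, both ELF3-like genes, ELF4 and LUX-like the evening members. PRR95-like shares 1 KEGG entry with APRR5-like (K12130) and 1 with APRR7-like (K12129), so its class is less sure than theirs.

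Names come from the best protein match listed for each gene. Those matches name 8 of the 10 members. APRR5-like (Cs5g16360) and ELF4 (Cs7g31110) match hypothetical citrus proteins, so these names rest on the study's own annotation. The KEGG entry of APRR5-like (K12130) is a clock entry, while that of Cs7g31110 (K01802) is not, so the name ELF4 is the less sure. The study designed real-time PCR primers for 5 of the members, and the pairs for GI, LHY-like and the 2 ELF3-like genes are shown because they identify the transcripts on which the account below turns, including the pair of genes that share 1 name. All are written 5′ to 3′ and in lower case, since no base is singled out.
GI (Cs3g21790), sense primer: cagcttgtagaacttcttcggg
GI (Cs3g21790), antisense primer: accccgattgcacgcaaa
LHY-like (orange1.1t00580), sense primer: ttcatcatgcggttccaata
LHY-like (orange1.1t00580), antisense primer: ctgcttctactacgacggttac
ELF3-like (Cs1g19130), sense primer: taaatcccacaggcgttga
ELF3-like (Cs1g19130), antisense primer: ggaaagccagtctgaccc
ELF3-like (Cs4g18880), sense primer: aacccgtctaatacccgtaa
ELF3-like (Cs4g18880), antisense primer: caagcgtgtcctccctgt

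Levels are in FPKM, fragments per kilobase of transcript, scaled to the mapped fragments of the library, as calculated by the authors. Changes are log2 fold changes of FPKM + 1 from a limma fit over all 9 libraries, given with their standard error. P-values were adjusted by the Benjamini-Hochberg method over the 17729 genes with at least 1 FPKM in at least 3 libraries, and all 10 members passed that filter in all 9 libraries. A gene is said to rise or fall where the adjusted p was under 0.05, and to pass the fold limit where its log2 fold change was also at least 1 in size. Of 14 shoot bud and meristem markers, SHOOT MERISTEMLESS-like (Cs2g02590), which keeps the shoot meristem undifferentiated, was at 57.3 ± 4.87, 70.5 ± 4.99 and 70.5 ± 4.90 FPKM in stages 1, 2 and 3 (SD, n = 3 each). Others fell under deficit, such as CUP-SHAPED COTYLEDON 2-like (Cs1g08000) at 2.35 ± 0.73, 0.337 ± 0.012 and 1.86 ± 0.21 FPKM and a WUSCHEL-like gene (Cs1g25270) at 1.02 ± 0.19, 0.060 ± 0.104 and 0.817 ± 0.188 FPKM (SD, n = 3 each). By adjusted p, 2 of the 9 tested markers rose and 5 fell under deficit, where 21.2% of all genes rose and 17.1% fell. Of the 2 tested floral organ markers, SEPALLATA 1-like Cs7g11800 averaged 6.76, 3.66 and 9.76 FPKM in stages 1, 2 and 3. The other, Cs5g12270, averaged 5.81, 5.80 and 7.37 FPKM. The median coefficient of variation among replicates, over genes of at least 100 FPKM, was 3.06% at stage 1, 5.61% at stage 2 and 4.31% at stage 3. The depth of each library cannot be read from FPKM values, so no counting error is given, and p-values measure the spread between these pools of trees. As the tissue is bulk, fewer cells expressing a gene and less RNA per cell cannot be told apart.

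At 1 week of water deficit 4 members passed the fold limit and all 4 were higher than before the deficit: GI, PRR95-like, APRR7-like and APRR5-like. Over all tested genes, 3.18% were higher by this measure and 4.66% lower. By adjusted p alone 7 members rose, against 21.2% of all genes, and 1 member, LHY-like, fell, against 17.1% of all genes. The 2 members left, APRR1-like and LUX-like, had overlapping libraries in the 2 stages. No member was lower past the fold limit, also at an unadjusted limma p under 0.05 or by a NOISeq-style probability of at least 0.8, which ranks a gene's difference between stages among the differences seen between replicates.

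One week after rewatering, 3 members passed the fold limit and were lower than under deficit: GI, APRR5-like and the ELF3-like gene Cs1g19130. None was higher by this measure, with an unadjusted limma p under 0.05 in its place or by a NOISeq-style probability, which called 5 members lower (APRR1-like and ELF4 besides the 3). Of all genes, 2.54% were lower and 4.92% higher. By adjusted p alone 7 members fell, where 19.8% of all genes fell, and only LHY-like rose, where 16.2% of all genes rose. The members that kept their deficit level or most of it were APRR7-like, PRR95-like and LUX-like.

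Rewatered buds set against buds before the deficit had 3 members higher past the fold limit, GI, PRR95-like and APRR7-like, where 2.69% of all genes were higher and 2.24% lower. None was lower past the fold limit, also at an unadjusted limma p under 0.05 or by the NOISeq-style probability, but APRR1-like was, at -1.05 (adjusted p = 1.65e-06), where libraries were scaled by their median. By adjusted p alone 4 members were higher, the same 3 and APRR5-like, and 4 were lower, LHY-like, APRR1-like and both ELF3-like genes. The shares of all genes were 14.4% higher and 12.9% lower. The 3 comparisons share their libraries in pairs, so they are not independent of each other.

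**Figure D1:**
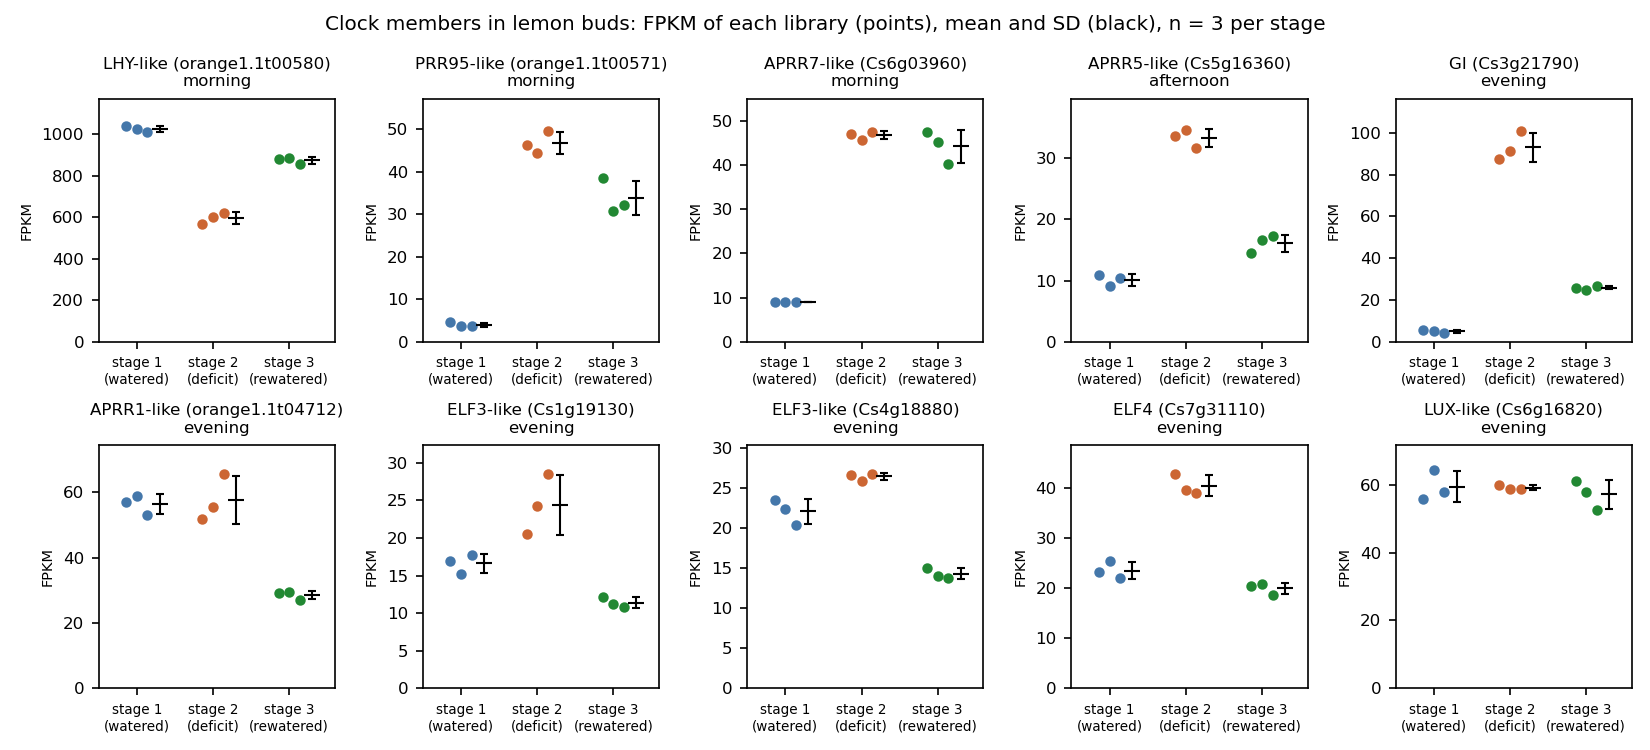
FPKM of the 10 clock members (vertical axes, each from 0 and on its own scale) in the 3 libraries of each stage (coloured points), with the mean and SD beside them (black, n = 3). GI lies at 4.21 to 5.64 FPKM in stage 1, 87.3 to 101 FPKM in stage 2 and 25.0 to 26.5 FPKM in stage 3, while LUX-like overlaps across all stages.

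GI, a large nuclear protein that works with the F-box blue light receptor FKF1, had the largest change of any member under deficit. Its libraries read 5.64, 4.97 and 4.21 FPKM at stage 1, 87.3, 91.3 and 101 FPKM at stage 2, and 25.9, 25.0 and 26.5 FPKM at stage 3. No library of one stage overlapped with another stage, and every stage 2 library was at least 3 times as high as any stage 3 library. GI rose under deficit by 3.99 ± 0.10 on the log2 scale (SE, limma adjusted p = 3.45e-10). That was the 7th highest log2 fold change among the 17729 tested genes. After rewatering it fell by 1.81 ± 0.10 (adjusted p = 1.05e-07), the 87th largest fall. It did not return to its first level: at stage 3 it was still 2.18 ± 0.10 higher than at stage 1 (adjusted p = 3.08e-08), which left 23.7% of the stage 2 gain in mean FPKM. Among the 10 members ordered by mean FPKM, GI was the 9th at stage 1, where its libraries overlapped with those of PRR95-like below it. It was the second at stage 2 and the 6th at stage 3, with no overlap with its neighbours in either stage.

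LHY-like, the dawn MYB factor that represses evening genes in Arabidopsis, was by far the most abundant member and moved the other way. It had 1040.0, 1026 and 1011 FPKM at stage 1, 568, 601 and 623 FPKM at stage 2, and 883, 885 and 856 FPKM at stage 3. The 3 stages did not overlap, with the deficit buds lowest and the rewatered buds between. LHY-like fell by 0.78 ± 0.04 under deficit (adjusted p = 1.23e-07) and rose by 0.55 ± 0.04 after rewatering (adjusted p = 1.94e-06). At stage 3 it was 0.23 ± 0.04 below stage 1 on the log2 scale (adjusted p = 0.00219). None of these changes passed the fold limit. By FPKM, LHY-like ranked between 26 and 29 of all 22353 genes in the stage 1 libraries, between 55 and 78 in the stage 2 libraries and between 36 and 38 in the stage 3 libraries. It made up 82.8 to 83.6% of the summed FPKM of the 10 members at stage 1, 57.7 to 58.9% at stage 2 and 77.0 to 78.2% at stage 3.

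GI and LHY-like can be set against each other within a library, where a scaling factor cancels. GI was 0.542, 0.484 and 0.417% of the LHY-like level at stage 1. It was 15.4, 15.2 and 16.2% of it at stage 2, and 2.94, 2.82 and 3.10% at stage 3. The difference of the 2 genes in log2(FPKM + 1) was 4.77 larger at stage 2 than at stage 1, 2.36 smaller at stage 3 than at stage 2 and 2.41 larger at stage 3 than at stage 1. In each comparison the 3 libraries of one stage lay apart from the 3 of the other. An exact two-sided permutation test gave p = 0.1 each time (adjusted p = 0.2 over 6 tests), and 0.1 is the smallest value that 3 libraries against 3 can give.

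The 2 morning pseudo-response regulators, transcriptional repressors that act after LHY in the Arabidopsis day, rose with the deficit and stayed up after it. PRR95-like had 4.60, 3.70 and 3.64 FPKM at stage 1, 46.5, 44.4 and 49.7 FPKM at stage 2 and 38.5, 30.8 and 32.3 FPKM at stage 3. Its stages did not overlap, and the lowest stage 3 library was well above the highest stage 1 library. It rose by 3.27 ± 0.11 under deficit (adjusted p = 2.92e-09), the 14th highest log2 fold change of all tested genes, and fell by 0.46 ± 0.11 after rewatering (adjusted p = 0.00726). At stage 3 it was 2.81 ± 0.11 above stage 1 (adjusted p = 9.37e-09), with 69.7% of the gain in mean FPKM kept. That placed it 19th from the top among all genes for this comparison, above GI at 59th and APRR7-like at 61st.

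APRR7-like (Cs6g03960) had 9.03, 9.03 and 9.10 FPKM at stage 1, 47.0, 45.7 and 47.5 FPKM at stage 2 and 47.5, 45.2 and 40.2 FPKM at stage 3. The stage 2 and stage 3 libraries overlapped, and all of them were several times the stage 1 level. APRR7-like rose by 2.25 ± 0.08 under deficit (adjusted p = 3.40e-09). The change after rewatering was -0.08 ± 0.08 (adjusted p = 0.471), and at stage 3 the gene remained 2.17 ± 0.08 above stage 1 (adjusted p = 5.12e-09), with 93.6% of the gain in mean FPKM kept. Within a library APRR7-like was 1.96, 2.44 and 2.50 times PRR95-like at stage 1, 1.01, 1.03 and 0.956 times at stage 2, and 1.23, 1.47 and 1.245 times at stage 3. So the pair was closest in level under deficit.

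APRR5-like, the afternoon member of the same repressor family, shared the rise but lost most of it. It had 10.9, 9.03 and 10.4 FPKM at stage 1, 33.6, 34.5 and 31.6 FPKM at stage 2 and 14.5, 16.5 and 17.2 FPKM at stage 3. The stages did not overlap. It rose by 1.63 ± 0.10 under deficit (adjusted p = 3.07e-07) and fell by 1.00 ± 0.10 after rewatering (adjusted p = 1.41e-05), which left 25.8% of the gain in mean FPKM. At stage 3 it was 0.62 ± 0.10 above stage 1 (adjusted p = 0.000768), short of the fold limit. Its fall after rewatering lies on the fold limit. Without stage 2 replicate 1 it was -0.997, without stage 2 replicate 2 it was -0.978, and without stage 3 replicate 1 it was -0.937, each no longer past the limit, though the adjusted p stayed under 0.05.

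APRR1-like, the counterpart of TOC1, closes the sequence of pseudo-response regulators and did not follow the others. It had 57.0, 59.0 and 53.0 FPKM at stage 1, 51.7, 55.5 and 65.7 FPKM at stage 2 and 29.3, 29.5 and 27.2 FPKM at stage 3. The stage 1 and stage 2 libraries overlapped, and all 3 rewatered libraries were lower than any other. The change under deficit was 0.03 ± 0.09 (adjusted p = 0.834), with no settled sign, since it was -0.14 where libraries were scaled by their median and -0.07 without stage 2 replicate 3. After rewatering it fell by 0.98 ± 0.09 (adjusted p = 6.14e-06), and stage 3 was also 0.95 ± 0.09 below stage 1 on the log2 scale (adjusted p = 1.08e-05). Of the 4 pseudo-response regulators, APRR7-like and PRR95-like thus kept most of their gain, APRR5-like lost most of it, and APRR1-like was lower after rewatering without a gain before. Whether these patterns differ from gene to gene was not tested. GI, another evening member, was 0.0989, 0.0843 and 0.0795 times the APRR1-like level at stage 1, 1.69, 1.65 and 1.53 times at stage 2 and 0.885, 0.847 and 0.975 times at stage 3.

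The evening complex, a repressor assembled from ELF3, ELF4 and the DNA-binding factor LUX, changed in part. ELF3 is the scaffold that holds the complex together. The ELF3-like gene Cs1g19130 had 16.9, 15.2 and 17.7 FPKM at stage 1, 20.5, 24.2 and 28.5 FPKM at stage 2 and 12.2, 11.2 and 10.8 FPKM at stage 3. The stages did not overlap, although the deficit libraries were spread widely. It rose by 0.52 ± 0.12 under deficit (adjusted p = 0.00546), fell by 1.02 ± 0.12 after rewatering (adjusted p = 5.17e-05) and ended 0.50 ± 0.12 below stage 1 (adjusted p = 0.00893). Its fall is also near the fold limit and was -0.910 without stage 2 replicate 3 and -0.989 without stage 3 replicate 3.

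The other ELF3-like gene, Cs4g18880, had 23.45, 22.3 and 20.4 FPKM at stage 1, 26.6, 25.9 and 26.7 FPKM at stage 2 and 15.0, 14.1 and 13.75 FPKM at stage 3. These stages did not overlap either, and the rewatered libraries were the lowest. Its change under deficit was 0.25 ± 0.08 (adjusted p = 0.0331). That call is not stable, since the adjusted p was 0.425 when each library was scaled by its median and 0.0812 after quantile normalization, and 5 of the 9 fits that each left out 1 library also lost it. After rewatering it fell by 0.84 ± 0.08 (adjusted p = 1.23e-05), and stage 3 was 0.59 ± 0.08 below stage 1 (adjusted p = 0.000275). The 2 ELF3-like genes were compared with each other within libraries. Their difference in log2(FPKM + 1) shifted by 0.27 at stage 2 against stage 1 (exact permutation p = 0.2), by -0.18 at stage 3 against stage 2 (exact permutation p = 0.4) and by 0.09 at stage 3 against stage 1 (exact permutation p = 0.4). Adjusted over 6 tests these p-values were 0.3, 0.4 and 0.4. As 3 libraries against 3 cannot give a p below 0.1, this test could not have passed 0.05, and whether the 2 genes respond differently is not settled by it. Cs1g19130 had 0.682 to 0.867 of the Cs4g18880 level at stage 1, 0.769 to 1.07 at stage 2 and 0.787 to 0.810 at stage 3.

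ELF4 (Cs7g31110), named after the small protein that strengthens ELF3 in the complex, had 23.1, 25.3 and 22.0 FPKM at stage 1, 42.85, 39.5 and 38.9 FPKM at stage 2 and 20.3, 20.8 and 18.7 FPKM at stage 3. All deficit libraries were higher than the others, and the libraries of stages 1 and 3 lay next to each other without overlap. ELF4 rose by 0.76 ± 0.08 under deficit (adjusted p = 2.64e-05) and fell by 0.99 ± 0.08 after rewatering (adjusted p = 3.09e-06). Stage 3 against stage 1 gave -0.23 ± 0.08 (adjusted p = 0.0630). This comparison passed when libraries were scaled by their median (adjusted p = 0.0160) and after quantile normalization (adjusted p = 0.0437).

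LUX-like, the MYB-type factor that brings the evening complex to DNA, was the member that varied least between stages. It had 55.8, 64.4 and 57.8 FPKM at stage 1, 59.9, 58.7 and 58.6 FPKM at stage 2 and 61.1, 57.7 and 52.4 FPKM at stage 3, and the 3 stages overlapped. Its log2 fold changes were -0.01 ± 0.07 at stage 2 against stage 1 (adjusted p = 0.963), -0.05 ± 0.07 at stage 3 against stage 2 (adjusted p = 0.633) and -0.06 ± 0.07 at stage 3 against stage 1 (adjusted p = 0.632). The second of these turned to 0.02 where libraries were scaled by their median. All 3 are small beside the rise of 0.76 in ELF4. Within a library ELF4 was 0.381 to 0.415 of the LUX-like level at stage 1, 0.665 to 0.716 at stage 2 and 0.333 to 0.360 at stage 3.

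**Figure D2:**
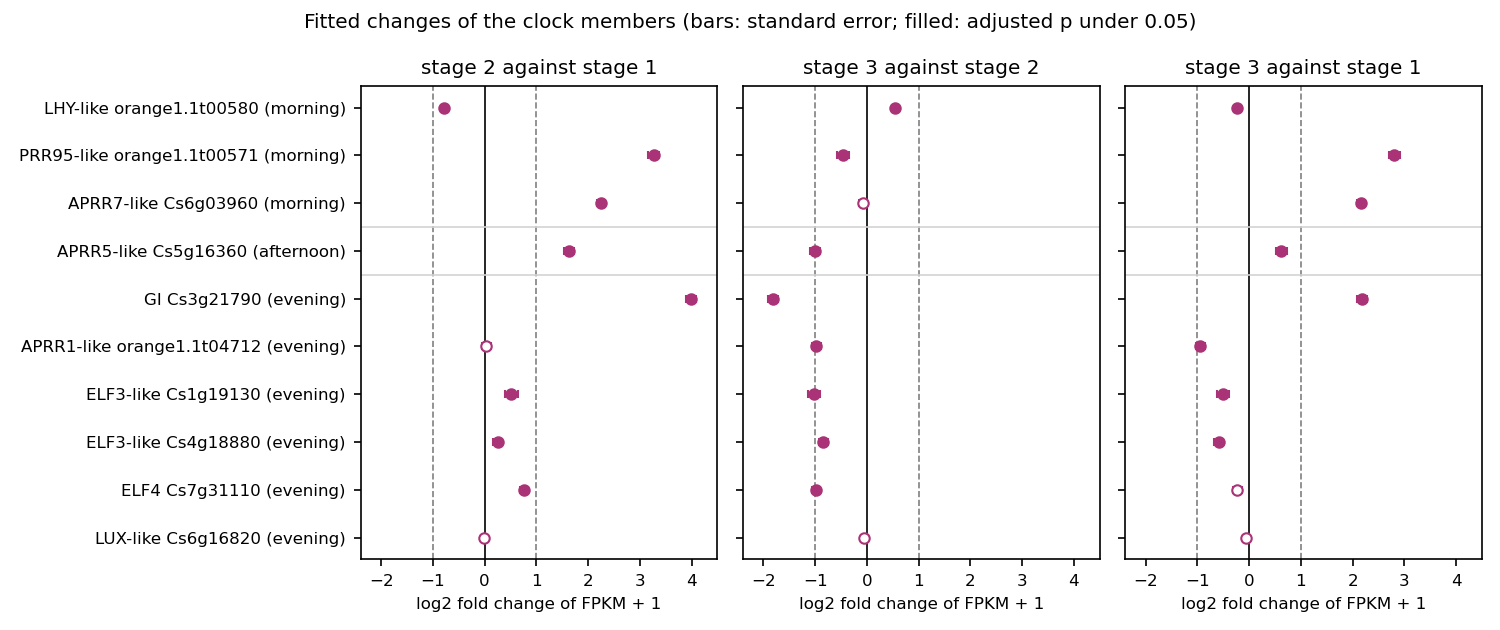
Log2 fold change of FPKM + 1 (horizontal axis) of each clock member in the 3 comparisons, with standard errors. Filled points had an adjusted p under 0.05, dashed lines mark the fold limit and grey lines divide morning, afternoon and evening members. GI stands at 3.99 for stage 2 against stage 1, and 4 members lie close to -1 for stage 3 against stage 2.

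In median log2 fold change the gap between morning and evening members was widest for rewatered buds against buds before the deficit. For stage 2 against stage 1 the median log2 fold change was 2.25 over the 3 morning members and 0.39 over the 6 evening members, beside 0.05 over all tested genes. For stage 3 against stage 2 it was -0.08 over the morning and -0.98 over the evening members, beside -0.06 over all genes. For stage 3 against stage 1 it was 2.17 over the morning and -0.37 over the evening members, beside 0.01 over all genes. These medians describe few genes and carry no test. They were not taken again without PRR95-like, whose class is less sure. Neither class was uniform. The log2 fold change of LHY-like had the opposite sign to those of the other morning members in every comparison, although the -0.08 of APRR7-like after rewatering did not pass the test. GI was 2.18 higher at stage 3 than at stage 1 while the other 5 evening members had fitted log2 fold changes from -0.95 to -0.06.

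As a mean of log2(FPKM + 1) per library, the morning members stood above the evening members by 0.65, 0.55 and 0.65 at stage 1, by 1.30, 1.26 and 1.246 at stage 2, and by 2.27, 2.19 and 2.21 at stage 3. The stages did not overlap in this difference. The morning mean was 5.18 to 5.28 at stage 1, 6.76 to 6.85 at stage 2 and 6.72 to 6.90 at stage 3. The evening mean was 4.53 to 4.63 at stage 1, 5.46 to 5.60 at stage 2 and 4.51 to 4.63 at stage 3. The morning mean was thus still up after rewatering, and the evening mean lay within its range before the deficit or just below it. These means hide members that moved apart. At stage 3 against stage 1, GI was 2.18 higher, while APRR1-like (-0.95) and the ELF3-like genes (-0.50 and -0.59) were lower by adjusted p. LHY-like was also lower (-0.23), unlike PRR95-like and APRR7-like.

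**Figure D3:**
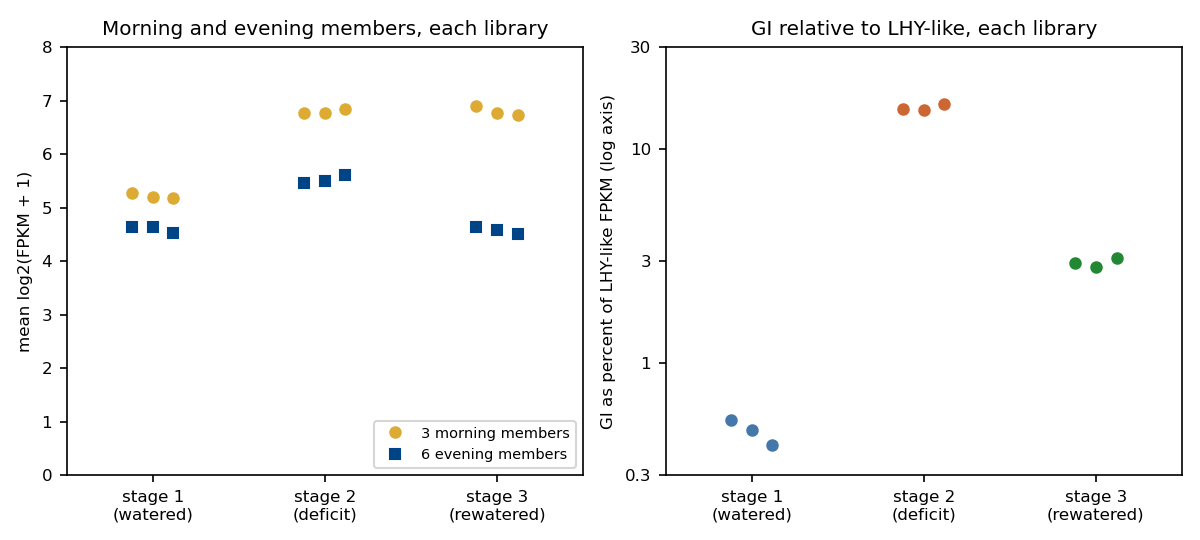
Left, the mean log2(FPKM + 1) of the 3 morning members (circles) and the 6 evening members (squares) in each library, by stage. Right, GI as a percent of the LHY-like FPKM in each library on a log axis, which is 0.417 to 0.542% at stage 1, 15.2 to 16.2% at stage 2 and 2.82 to 3.10% at stage 3.

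Other clock, light and output genes of the pathway were gathered by words in the protein matches and by KEGG clock entries, which gave 94 genes besides the members, 88 of them tested. Past the fold limit, 11 were higher and 5 lower at stage 2 than at stage 1, 3 were higher and 12 lower at stage 3 than at stage 2, and 7 were higher and 5 lower at stage 3 than at stage 1. As shares of the 88 these are 12.5% higher and 5.68% lower, 3.41% higher and 13.6% lower, and 7.95% higher and 5.68% lower. The shares of all tested genes were 3.18% and 4.66%, 4.92% and 2.54%, and 2.69% and 2.24% in the same order, so the share lower at stage 2 and the share higher at stage 3 against stage 2 were near those of all genes. The groups within the list follow KEGG entries, so the entry for a clock protein can hold relatives with another name. The group placed in the clock core held 19 genes, 18 of them tested. Past the fold limit it gave 2 higher (11.1%) and 0 lower for stage 2 against stage 1. It gave 0 higher and 3 lower (16.7%) for stage 3 against stage 2, and 1 higher and 1 lower (5.56% each) for stage 3 against stage 1. Both counts of 0 were the same at an unadjusted limma p under 0.05 with the fold limit and by the NOISeq-style probability. Without the fold limit adjusted p gave 2 lower (11.1%, against 17.1% of all genes) for stage 2 against stage 1. It gave 1 higher (5.56%, against 16.2%) for stage 3 against stage 2. The study describes 1 gene of this group, Cs2g24030, as CONSTANS-LIKE 6. That gene was 1 of the 3 lower for stage 3 against stage 2 and the 1 lower for stage 3 against stage 1.

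A further pseudo-response regulator, PRR73 (Cs8g17520), named after a rice gene related to PRR7, had a pattern near that of GI. It had 15.0, 11.5 and 12.9 FPKM at stage 1, 115, 115 and 122 FPKM at stage 2 and 42.2, 41.2 and 38.2 FPKM at stage 3, with no overlap between stages. It rose by 3.07 ± 0.09 under deficit (adjusted p = 8.80e-10), fell by 1.51 ± 0.09 after rewatering (adjusted p = 1.91e-07) and ended 1.56 ± 0.09 above stage 1 (adjusted p = 1.88e-07). Its stage 2 libraries were higher in FPKM than those of the 4 members of the same family. A PRR37-like gene (Cs7g27910), singled out after its values were seen, was at 1.83 to 2.48 FPKM at stage 1, 2.67 to 2.86 FPKM at stage 2 and 3.26 to 4.18 FPKM at stage 3, with no overlap between stages. It was 0.56 ± 0.17 higher at stage 3 than at stage 1 on the log2 scale (adjusted p = 0.0302), and the steps between, 0.25 and 0.31, did not pass the test (adjusted p = 0.275 and 0.182).

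Adagio 3 (Cs2g17510) falls under the KEGG entry of FKF1, the F-box partner of GI. It had 4.26, 4.72 and 4.55 FPKM at stage 1, 31.3, 25.6 and 27.9 FPKM at stage 2 and 5.11, 4.66 and 4.11 FPKM at stage 3. Only the deficit libraries stood apart. It rose by 2.40 ± 0.12 under deficit (adjusted p = 7.13e-08) and fell by 2.38 ± 0.12 after rewatering (adjusted p = 7.14e-08). Its stage 3 libraries overlapped with those of stage 1, with a log2 fold change of 0.03 ± 0.12 for stage 3 against stage 1 (adjusted p = 0.903).

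Cycling DOF factors repress CONSTANS in Arabidopsis until GI and FKF1 remove these proteins. Only RNA was measured here, and whether its changes bear on that step was not tested. The 3 cycling DOF genes found in the list all fell past the fold limit under deficit, where 4.66% of all genes were lower. They are described here after their values were seen. The cyclic dof factor 2-like gene Cs6g21400 had 109, 109 and 108 FPKM at stage 1, 40.9, 43.6 and 48.6 FPKM at stage 2 and 65.5, 64.0 and 70.0 FPKM at stage 3. Its log2 fold change under deficit was -1.28 ± 0.07 (adjusted p = 9.64e-08). The cyclic dof factor 3-like genes Cs5g10770 and Cs7g03670 changed by -1.09 ± 0.09 and -1.38 ± 0.09. After rewatering all 3 rose by adjusted p (against 16.2% of all genes), with Cs7g03670 past the fold limit at 1.04 ± 0.09. At stage 3 all 3 were below stage 1 by adjusted p (against 12.9%), by log2 fold changes of -0.70, -0.54 and -0.35. In the 5 genes under the KEGG entries of LHY and CCA1 apart from LHY-like itself, 2 fell under deficit by adjusted p, or 40.0% where 17.1% of all genes did. The larger fall was that of Cs6g16000, picked after its values were seen, which had 237, 233 and 235 FPKM at stage 1, 120, 115 and 127 FPKM at stage 2 and 125, 124 and 126 FPKM at stage 3 and so did not recover as LHY-like did.

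**Figure D4:**
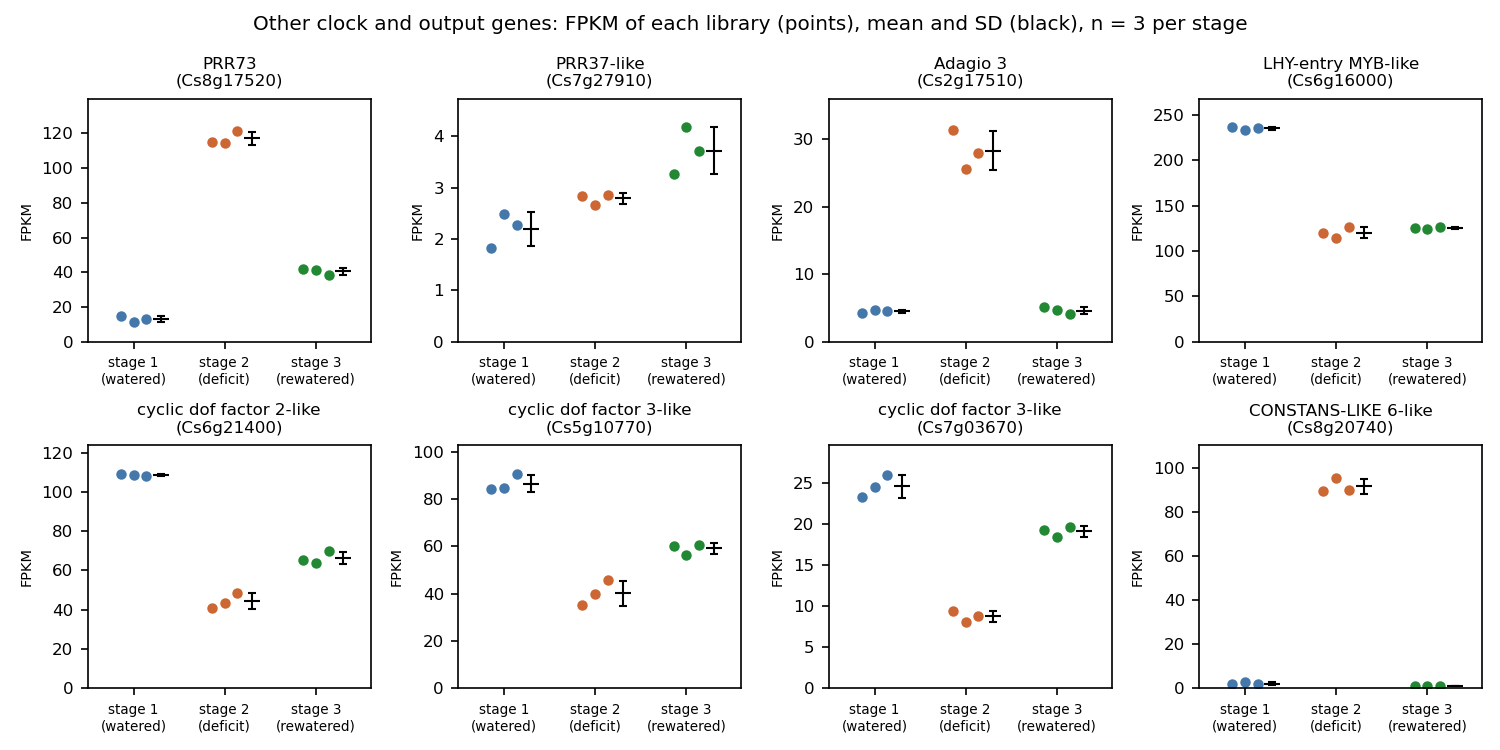
FPKM of 8 further clock and output genes (vertical axes, each from 0 and on its own scale) in the 3 libraries of each stage (points), with mean and SD (black, n = 3). PRR73 is at 115 to 122 FPKM in stage 2 and 38.2 to 42.2 FPKM in stage 3, and the 3 cyclic dof factors are lowest in stage 2.

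Among output genes, 8 of 33 tested were higher and 5 lower past the fold limit at stage 2 than at stage 1, 1 was higher and 8 lower at stage 3 than at stage 2, and 5 were higher and 4 lower at stage 3 than at stage 1. These are 24.2% and 15.2%, 3.03% and 24.2%, and 15.2% and 12.1% of the tested output genes, beside the shares of all genes given above for the whole list. CONSTANS-LIKE 6-like (Cs8g20740), a B-box zinc finger protein of the CONSTANS family, had 1.81, 2.75 and 1.79 FPKM at stage 1, 89.7, 95.6 and 89.9 FPKM at stage 2 and 1.05, 1.19 and 0.960 FPKM at stage 3. A light-regulated protein gene (Cs2g14490) went the same way, with 3.48 to 5.22, 148 to 171 and 5.45 to 7.22 FPKM in stages 1, 2 and 3. The log2 fold changes of this pair were 4.91 ± 0.14 and 4.89 ± 0.14 under deficit and -5.49 ± 0.14 and -4.52 ± 0.14 after rewatering. CONSTANS-LIKE 16 (Cs2g12490) and a CONSTANS-LIKE 14-like gene (Cs7g02880) also rose under deficit, by 2.28 ± 0.08 and 2.18 ± 0.17, and fell by 2.83 ± 0.08 and 2.37 ± 0.17 after rewatering. At stage 3 against stage 1 these 4 genes had log2 fold changes of -0.58, 0.37, -0.54 and -0.19, while GI and PRR73 kept part of their gain. The difference between these genes and GI was not tested.

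Chlorophyll a-b binding proteins, light-harvesting proteins whose genes are clock outputs in many plants, were higher under deficit and in part after it. All 6 tested genes rose under deficit by adjusted p, 3 of them past the fold limit. At stage 3, 4 of the 6 (66.7%) were higher than at stage 1, all past the fold limit, where 2.69% of all genes were. Cs4g07150 at 0.28 (adjusted p = 0.299) and Cs9g17350 at 0.16 (adjusted p = 0.576) did not pass and overlapped with stage 1. Chlorophyll a-b binding protein P4 (Cs5g10800) had 40.9 to 45.3 FPKM at stage 1, 157 to 162 FPKM at stage 2 and 130 to 135 FPKM at stage 3. These genes also mark green leaf tissue. The 8 leaf mesophyll markers, 7 chlorophyll a-b binding proteins and a Rubisco small chain, summed to 2013 to 2067 FPKM at stage 1, 3172 to 3876 FPKM at stage 2 and 3893 to 4617 FPKM at stage 3. The 14 shoot bud and meristem markers summed to 182 to 190 FPKM at stage 1, 226 to 239 FPKM at stage 2 and 258 to 263 FPKM at stage 3. That sum is carried by a knotted-1-like 2 gene (Cs3g16460), at 77.1, 128 and 144 FPKM on average in stages 1, 2 and 3, and by SHOOT MERISTEMLESS-like, the only 2 of the 9 tested that rose under deficit. The 5 that fell were 2 other knotted-1-like genes, both tested CUP-SHAPED COTYLEDON genes and the WUSCHEL-like gene. The leaf marker sum, like PRR95-like and APRR7-like, was higher in both later stages than at stage 1 with no overlap. In FPKM the rise was largest in Cs2g03780 (chlorophyll a-b binding protein 3C), at 812, 1750 and 2357 on average in the 3 stages. The Rubisco small chain was at 875, 964 and 1020 FPKM. At stage 3 against stage 2 the leaf marker sum was higher, where PRR95-like fell and APRR7-like overlapped. In that comparison 2 of the 7 tested leaf markers rose by adjusted p and 3 fell, where 16.2% of all genes rose and 19.8% fell. The part of leaf tissue in the members' changes was not tested.

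The group of light receptors and light signalling factors passed the fold limit about as often as all genes, or less. Of its 37 tested genes, 28 were placed as light signalling factors, most of them only by the KEGG entry K12126. That entry also holds transcription factors with other names, such as SPATULA-like and BEE 3-like, so the counts are not of light signalling genes alone. By adjusted p alone the shares of the group exceeded those of all genes, except for genes higher at stage 2 than at stage 1. Past the fold limit, 1 of 37 tested (2.70%, against 3.18% of all genes) was higher and 0 lower for stage 2 against stage 1. Adjusted p alone gave 5 higher (13.5%, against 21.2% of all genes) and 10 lower, a larger share than the 17.1% of all genes. The NOISeq-style probability gave 2 higher and 1 lower. At stage 3 against stage 2, 2 were higher (5.41%, against 4.92% of all genes) and 1 lower (2.70%, against 2.54%). Adjusted p alone gave 32.4% higher (against 16.2%) and 21.6% lower (against 19.8%). At stage 3 against stage 1, 1 was higher (2.70%, against 2.69%) and 0 lower. Adjusted p alone gave 9 higher (24.3%, against 14.4%) and 10 lower, a larger share than the 12.9% of all genes. The gene higher under deficit was a PIF3-like factor (orange1.1t01783) of the phytochrome-interacting family, at 11.5 to 12.4 FPKM in stage 2 and 2.18 to 2.56 FPKM in stage 1. The gene higher at stage 3 than at stage 1 was a UVR8-like gene (orange1.1t03043), matched to the ultraviolet-B receptor, at 32.2 to 35.8 FPKM in stage 3 and 9.08 to 10.7 FPKM in stage 1.

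The genes whose pattern was most like that of GI were found by the root mean square difference of log2(FPKM + 1), centred on each gene's mean, over the 9 libraries. The nearest was a 22.0 kDa class IV heat shock protein gene (Cs5g18500) at 0.17, with 6.20 ± 0.87, 118 ± 15.5 and 36.1 ± 4.13 FPKM in stages 1, 2 and 3 (SD, n = 3 each). It was followed by a thiamine thiazole synthase gene (Cs2g07600) at 0.39, PRR73 at 0.40 and a urea transporter gene of the DUR3 type (Cs3g09690) at 0.44. For LHY-like, the 4 nearest genes (orange1.1t04099, orange1.1t03349, orange1.1t04404 and Cs8g06470) lay at 0.05 each and match only uncharacterized or hypothetical proteins. The points of this measure are the same 9 libraries for every gene, and it is given as a description.

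FLOWERING LOCUS T (Cs6g05140), the flowering signal that the clock controls in Arabidopsis leaves, was scarcely present in these buds, at 1.03 ± 0.45, 1.38 ± 0.40 and 0.433 ± 0.394 FPKM in stages 1, 2 and 3 (SD, n = 3 each). Its log2 fold changes were 0.24 ± 0.29 at stage 2 against stage 1 (adjusted p = 0.543), -0.76 ± 0.29 at stage 3 against stage 2 (adjusted p = 0.0619) and -0.52 ± 0.29 at stage 3 against stage 1 (adjusted p = 0.222), so no difference between stages was detectable at this level.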

How the data were processed

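The authors cleaned the reads (FASTX-Toolkit), aligned them to sweet orange using BWA, and deposited 1 FPKM value, to 2 decimals, for each of 22353 genes in each of 9 libraries. The counting program is not given in the sources used here, nor are tool versions. Lemon reads were thus counted on a related species, which can lower the level of genes that differ between the 2 but is the same at every stage. Stages come from the sample labels. The members and lists were chosen with earlier results of these data known. Values were analysed as log2(FPKM + 1) with limma 3.58.1 (trend, 1 mean per stage, R 4.3.3), after a filter of 1 FPKM in 3 libraries, and the test was checked on simulated data. With 50 genes changed by each size for stage 2 against stage 1, 47 were called at a log2 change of 1.25 and 49 at 1.5. The changed genes left out those of low mean level, and each gene had the same simulated spread at every stage. Pairs of genes were compared by exact permutation tests. Named genes beyond the members were at most the 4 with the largest called change in each group of the list and comparison, the 4 most like GI or LHY-like, and FLOWERING LOCUS T. Marker genes, and other genes of the list said in the text to be chosen after their values were seen, stand outside this rule. One KEGG entry in the range used for the list turned out to hold 10 kinases, which were left out after the table was seen. The study's own test, NOISeq, was imitated as an alternative, with other scalings, filters, pseudocounts, a replicate block and libraries left out in turn.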

Additional observations from a re-analysis of the deposited data

How the results depend on the processing

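Of the 630 refitted member changes, 585 kept their direction and their side of the thresholds, 26 gained a call and 9 lost one. The other 10 changed sign without passing the fold limit in either fit, all of them in APRR1-like (0.03 for stage 2 against 1, -0.14 to -0.01 where it turned) and LUX-like (-0.01, -0.05 and -0.06 for the 3 comparisons in turn, at most 0.05 where they turned). Without the fold limit, 6800, 6390 and 4845 genes passed for stage 2 against 1, stage 3 against 2 and stage 3 against 1, as did 8 members each time and 49, 53 and 45 genes of the wider list. The member count for stage 3 against 2, main value 3, rests on falls near the limit. It was 1 under median scaling and under quantile normalization (GI), 5 with a pseudocount of 0.01 and by NOISeq-style probability, and 2 to 4 with 1 library left out. Median scaling moved the median change of all genes from 0.05 to -0.10 for stage 2 against 1 and the share of higher genes among those called from 40.5% to 26.5%. For stage 3 against 1 that share was 54.6% and, with median scaling, 44.7%. Under median scaling GI still changed by 3.83 and LHY-like by -0.95 for stage 2 against 1.

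The morning median for stage 2 against 1 was 2.08 with median scaling, 2.37 and 2.35 with pseudocounts of 0.01 and 0.1, and 1.94 with APRR5-like added. The evening median was 0.22 with median scaling, 0.52 with APRR5-like added and 0.25 without GI. For stage 3 against 2 the morning median with APRR5-like was -0.27. For stage 3 against 1 the morning median was 2.29 and 2.27 with those pseudocounts and 1.39 with APRR5-like, and the evening median was -0.23 with APRR5-like and -0.50 without GI.

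Replicate numbers showed no detectable pairing of the libraries: deviations of same-numbered libraries correlated from -0.10 to 0.03. With 3 libraries per stage this cannot show that the groups of trees were unpaired. The replicate block gave 1390, 1319 and 872 called genes against 1391, 1322 and 874 without it, and changed no member call. Stage, date, bud development and hour of collection cannot be told apart.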

Other observations

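A few other genes around the clock, picked after their values were seen, are given with their values. TIME FOR COFFEE-like (Cs9g06630), whose Arabidopsis counterpart keeps the clock running through the night, had 90.0, 89.1 and 88.6 FPKM at stage 1, 91.0, 92.7 and 91.4 FPKM at stage 2 and 50.3, 49.0 and 49.0 FPKM at stage 3. Its log2 fold change under deficit was 0.04 ± 0.05 (adjusted p = 0.564), and it fell by 0.88 ± 0.05 after rewatering (adjusted p = 1.12e-07), the same order of stages as in APRR1-like. A cryptochrome-2-like gene (Cs9g10510), a blue light receptor, was at 59.8 to 66.2 FPKM at stage 2 and 37.9 to 39.3 FPKM at stage 1, a rise of 0.68 ± 0.07 (adjusted p = 1.96e-05), and fell by 0.48 ± 0.07 after rewatering (adjusted p = 0.000274).

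The 3 ELF4-like genes outside the members had log2 fold changes of 0.16, 0.32 and 0.40 for stage 2 against stage 1. Of these, 1 (33.3%, against 21.2% of all genes) passed, Cs1g17650 (0.32 ± 0.11), at an adjusted p of 0.0350. Of 23 tested genes placed with CONSTANS by name or KEGG entry, 2 fell past the fold limit under deficit (8.70%, against 4.66% of all genes). Another 4 rose past it (17.4%, against 3.18%). Some of the 23 have other names, such as orange1.1t01583, a salt tolerance protein (At1g78600) that was among the 4 that rose. The 2 that fell were also chosen after their values were seen. CONSTANS-LIKE 2-like (Cs6g19280) had 92.1, 89.6 and 92.7 FPKM at stage 2, against 249.9, 235 and 247 FPKM at stage 1, a fall of 1.41 ± 0.05 on the log2 scale (adjusted p = 4.16e-09). The other, Cs2g21940, changed by -1.35 ± 0.12 (adjusted p = 4.81e-06). No difference between these relatives and the members was tested.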
